A study of Equus asinus with 2 samples.

Results

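The cells described here are podocyte-gated cells of the mesonephros of the fetal donkey (Equus asinus) at 4 weeks of gestation. A member is a cell barcode of the 4-week library with at least 1500 UMIs (unique molecular identifiers, each standing for 1 captured RNA molecule), with NPHS1 at 3 or more UMIs per 10000 and at least 2 UMIs, and with PTPRO at 5 or more UMIs per 10000. By this rule 83 of 8092 barcodes were members, 1.03% (0.818 to 1.27, Clopper-Pearson interval at 95%). The other 8009 barcodes of the library are called other barcodes. The same library held 846 barcodes with fewer UMIs, of which 0 met the conditions on NPHS1 and PTPRO.

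Single-cell RNA was read in 2 libraries, 1 of mesonephros together with gonad at 4 weeks and 1 of tissue labelled ovary at 8 weeks, both dissociated with collagenase IV and DNase I. No genotype, strain or treatment is given, nor the number of fetuses behind a library. Both libraries carry the cell type label germ cells, which the marker genes of the members described below go against. Of 11994 barcodes with at least 1500 UMIs in the library labelled ovary, 0 passed the gate, which allows a share of up to 0.0250%. That library held 121 NPHS1 and 333 PTPRO UMIs in all, and since stage, tissue and library differ together, these cannot be told apart.

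Podocytes are the epithelial cells that wrap the capillaries of the glomerulus, in the transient mesonephros as in the permanent kidney. Their foot processes interlock across the slit diaphragm, a junction built from nephrin (NPHS1) and its partners, and they stand on a basement membrane that they lay down together with the endothelium. They signal to the vessel through secreted factors such as VEGFA, and they leave the cell cycle as they form, while WT1 and LMX1B run their gene programme.

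The members held 1569 UMIs in the shallowest barcode, 9265 at the median and 95475 in the deepest, and a median of 3459 detected genes. The other barcodes had medians of 8649 UMIs and 3411 genes. The 5 deepest members held 25.2% of all member UMIs, and 18 members (21.7%) lay above 25995 UMIs, which is 3 times the median, against 16.3% of the other barcodes. Of the 83 members, 4 were among the 6% of barcodes with the highest doublet scores, 7 (8.43%) passed a gate for endothelial cells, and 0 passed the gates for proximal tubule, distal tubule or Sertoli cells. The 2 libraries shared 38 barcode sequences, 1 of them a member. No pair of members had identical counts (0 pairs). All intervals in the text are 95% intervals of counting error. They hold no spread between animals, and since each stage is 1 library and the members were chosen by their RNA, no difference was tested.

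NPHS1 and PTPRO, the genes of the gate, are given as a description. NPHS1, the extracellular bridge of the slit diaphragm, stood at 3.32, 12.5 and 44.7 UMIs per 10000 in the lowest, median and highest member. PTPRO, a receptor phosphatase of the foot process, stood at 6.05, 27.5 and 129 UMIs per 10000. Just outside the gate, the highest NPHS1 value of a barcode with at least 2 NPHS1 UMIs that met the PTPRO condition was 2.53 (barcodes with 1 NPHS1 UMI reached 6.07), and the highest PTPRO value of a barcode that met the NPHS1 conditions was 4.83 UMIs per 10000. Levels in the rest of the text are counts per 1000000 UMIs (CPM), summed over the barcodes of a class. A gene is called higher or lower when it differed at least 2-fold between these sums, which is a rule of size and not a test. CPM of different genes are not compared, since transcripts differ in length and in how well they are captured.

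The genes that define podocytes and that the gate did not use stood far higher in the members. Podocalyxin (PODXL), the charged coat protein that keeps foot processes apart, was at 1403 CPM in the members and 62.1 CPM in the other barcodes, 22.6-fold higher (21.5 to 23.7), and 82 of 83 members held a UMI of it. WT1, the zinc-finger regulator of podocyte genes, was at 482 CPM and 115 CPM for members and other barcodes, 4.20-fold higher (3.89 to 4.53), with a UMI in 75 of 83 members. Both markers outside the gate therefore went with the name podocyte. WT1 was also at 217 CPM in Sertoli-gated barcodes, and PODXL at 171 CPM in endothelial-gated ones, 2 classes that are known to express these genes.

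Per cell, PODXL stood at 0, 13.8 and 82.9 UMIs per 10000 in the lowest, median and highest member, WT1 at 0, 3.63 and 24.7, and CLIC5, an actin-linking chloride channel protein of the foot process, at 0, 6.55 and 22.9. In the other barcodes the 95th percentile was 3.26 UMIs per 10000 for PODXL, 3.96 for WT1 and 0.446 for CLIC5. The members and the other barcodes thus overlapped most in WT1, whose highest other barcode reached 31.9, above the highest member.

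**Figure D1:**
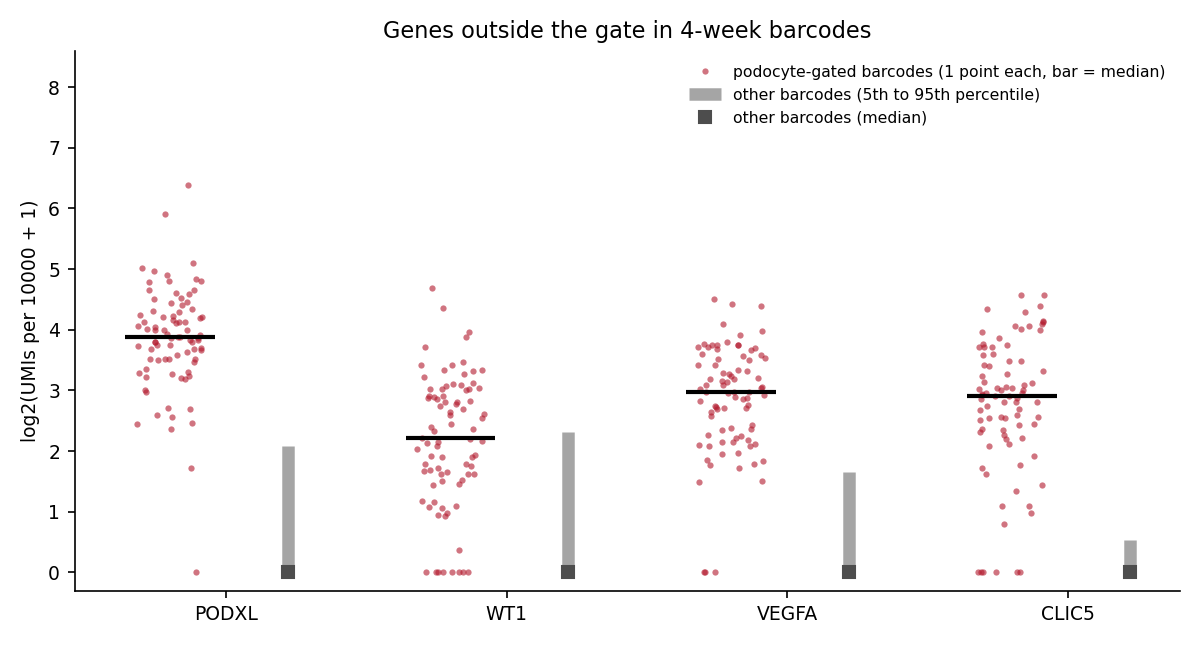
Level of 4 genes outside the gate, as log2(UMIs per 10000 + 1), in each of the 83 podocyte-gated barcodes (points, with the median as a bar) and in the 8009 other barcodes (5th to 95th percentile as a grey bar, median as a square). The member median lies above the 95th percentile of the other barcodes for PODXL, VEGFA and CLIC5, and below it for WT1 (3.63 against 3.96 UMIs per 10000).

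At equal depth the members stayed above the endothelial-gated barcodes in CLIC5, WT1 and VEGFA. With every barcode thinned to 1500 UMIs, which left out 0 barcodes of these classes, a CLIC5 UMI was found in 68.7% of members (57.6 to 78.4), against 2.01% of endothelial-gated barcodes (1.35 to 2.88) and 1.14% of all other barcodes. Unthinned, the shares were 92.8%, 8.32% and 7.42%, with median depths of 9265, 8551 and 8649 UMIs. For WT1 the thinned shares were 47.0% of members and 3.12% of endothelial-gated barcodes (unthinned 90.4% and 16.7%), and for VEGFA 61.4% and 3.88% (unthinned 96.4% and 26.4%). Thinned WT1 shares of Sertoli-gated barcodes, a class known to express it, and of all other barcodes are not given here.

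Across the transcriptome, 12678 genes had enough UMIs to compare, meaning at least 10 in the members or at least 10 expected there at the level of the other barcodes. A gene that entered only through its member UMIs was bound to stand above the other barcodes, though not always 2-fold. The counts thus describe the split and support nothing, and the list counts and medians below share this limit. The members were at least 2-fold higher in 1008 of these genes, 7.95%, and at least 2-fold lower in 2411, 19%. The median log2 ratio of all genes compared was −0.21. Relative to that median, 1275 genes were higher and 2001 lower. By the same rule the members were higher than proximal tubule-gated barcodes in 1558 genes (12.7% of those compared) and higher than distal tubule-gated barcodes in 1657 (13.6%). These 880 and 196 tubule barcodes, the other epithelium of the nephron, held median depths of 7175 and 3970.5 UMIs.

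The slit diaphragm genes were higher in 11 of 18 and lower in 2 of 18, beside backgrounds of 7.95% and 19%. Their median log2 ratio was 1.16, against −0.21 for all genes. Both gate genes are on this list or the next, so their counts are partly set by the rule. MAGI2, the scaffold that ties nephrin to the cytoskeleton, had a UMI in 83 of 83 members and stood at 10118 CPM in them and 185 CPM in the other barcodes, 54.8-fold higher (53.7 to 56.0). DDN, which encodes the podocyte protein dendrin, was at 202 CPM against 1.36 CPM, and 60 of 83 members held a UMI. CRB2, the polarity protein of the foot process, was 9.41-fold higher (8.08 to 10.9) at 133 CPM in members and 14.1 CPM in the other barcodes.

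Among the nephrin relatives, KIRREL1 was 2.49-fold higher (2.26 to 2.74) at 295 CPM in members and 118 CPM in the other barcodes. KIRREL2 was 12.4-fold higher (9.36 to 16.3) at 41.2 CPM in members and 3.31 CPM in the other barcodes. KIRREL3 went the other way, at 5.31 CPM in members and 31.3 CPM in the other barcodes. The adaptor CD2AP stood at 1113 CPM against 283 CPM and the junction protein TJP1 at 765 CPM against 201 CPM in the other barcodes. The giant cadherin FAT1 and the polarity gene PARD3 lay within 2-fold, at 245 and 274 CPM in members and 224 and 284 CPM in the other barcodes. TRPC6, the calcium channel of the podocyte whose mutation causes human kidney disease, had 1.33 CPM (0.161 to 4.80) in members, with a UMI in 2 of 83, against 14.7 CPM in the other barcodes.

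On the apical side the median log2 ratio was 1.81. Of 10 genes, 6 were higher and 1 lower, beside 7.95% and 19% over all genes. Besides PODXL, these were PTPRO, CLIC5 (728 CPM in members, 10.997 CPM in the other barcodes), ezrin (EZR, which links podocalyxin to actin, 1020 CPM and 257 CPM), the aminopeptidase ENPEP (600.0 CPM and 28.2 CPM) and podoplanin (PDPN, 6.64 CPM and 2.24 CPM). Podoplanin was thus found at few UMIs, in 8 of 83 members. The 2 ezrin partners SLC9A3R1 and SLC9A3R2 were 1.93-fold (1.65 to 2.25) and 1.89-fold (1.63 to 2.19) above the other barcodes, just short of the 2-fold mark. SLC9A3R2 stood at 84.1 CPM without the 7 members that pass the endothelial gate, against 123 CPM with them. CLIC4, the broadly expressed relative of CLIC5, was lower at 55.8 CPM in members and 196 CPM in the other barcodes.

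The transcription factors had the highest list median, a log2 ratio of 2.40, with 7 of the 10 genes compared higher and 0 lower. The shares over all genes were 7.95% and 19%. FOXD1 and LMX1B entered the comparison only through their member UMIs, so the count and median are partly set by that filter. FOXD1 was 61.6-fold higher (53.6 to 70.8) at 242 CPM in members and 3.93 CPM in the other barcodes. LMX1B, the nail-patella gene, was 24.1-fold higher (19.9 to 29.0) at 98.2 CPM in members and 4.08 CPM in the other barcodes. FOXC2, FOXC1 and TCF21, which shape the early glomerulus in mice, stood at 123, 66.4 and 127 CPM in members and 16.7, 16.9 and 19.3 CPM in the other barcodes. MEIS2, ZHX2 and ZBTB20 lay within 2-fold. Against the tubules the same list stood further apart, with medians of 4.07 over proximal and 4.43 over distal tubule-gated barcodes and 8 of 10 genes higher in each. LMX1B was at 0.907 CPM in proximal and 0.474 CPM in distal tubule-gated barcodes.

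**Figure D2:**
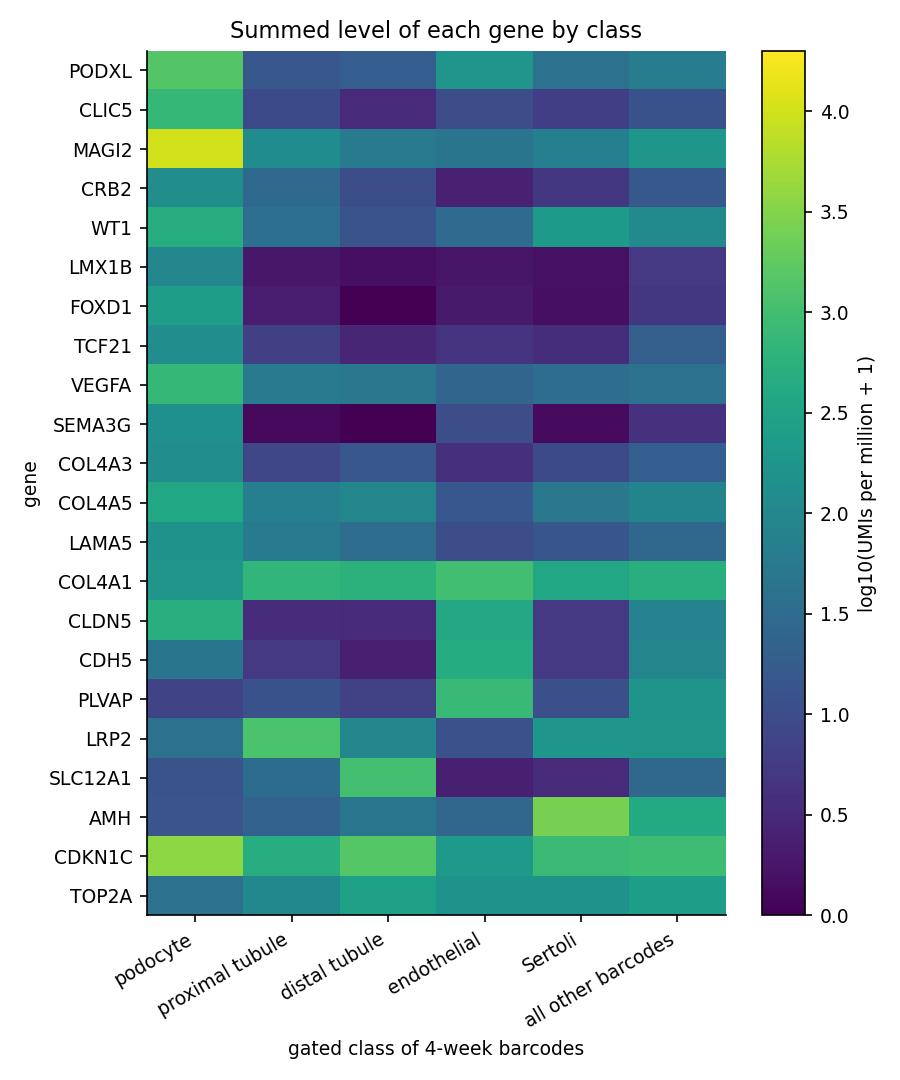
Summed level of podocyte genes and markers of other classes, as log10(CPM + 1), in podocyte-gated barcodes and in proximal tubule-gated, distal tubule-gated, endothelial-gated, Sertoli-gated and all other barcodes of the 4-week library, to be read along each row. LMX1B and FOXD1 are at 4.08 CPM or lower outside the podocyte column, CLDN5 is high in both the podocyte and the endothelial column, and TOP2A is lowest in the podocyte column.

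The genes of the basement membrane split by chain. Of 16 genes, 9 were higher and 3 lower, beside 7.95% and 19% over all genes, and the median log2 ratio was 1.19. The chains that build the mature glomerular collagen were higher: COL4A3 stood at 131 CPM in members and 18.1 CPM in the other barcodes, 7.24-fold higher (6.22 to 8.38), COL4A4 at 45.1 CPM against 11.9 CPM, and COL4A5 at 374 CPM against 85.0 CPM. A COL4A3 UMI was found in 35 of 83 members and a COL4A4 UMI in 29 of 83. In the 44 members without an MGAT4C UMI, a split described below, COL4A3 and COL4A4 stood at 17.2 and 11.9 CPM. These are near the levels of the other barcodes. COL4A6, the partner of COL4A5 in other membranes such as that of Bowman's capsule, stood at 91.6 CPM against 22.1 CPM. COL4A1 and COL4A2, the chains of the general network, were lower, at 174 and 119 CPM in members against 498 and 263 CPM in the other barcodes. Endothelial-gated barcodes held these chains at 1006 and 532 CPM, and COL4A3 at 2.89 CPM. Without the 7 members that pass the endothelial gate COL4A1 stood at 124 CPM and COL4A3 at 119 CPM, so that each kept its side. With the looser gate of 109 members COL4A1 and COL4A2 lay within 2-fold, at log2 ratios of −0.74 and −0.60.

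Of the laminin chains, LAMA5, the alpha chain of the mature membrane, was 6.01-fold higher (5.24 to 6.86) at 158 CPM in members and 26.3 CPM in the other barcodes. LAMB2, its mature beta chain, was 1.92-fold above (1.49 to 2.44) at 45.1 CPM in members and 23.5 CPM in the other barcodes. The chains of the immature membrane, LAMA1 and LAMB1, were still present, at 71.7 and 232 CPM in members and 45.9 and 192 CPM in the other barcodes, both within 2-fold. LAMC1, NID1, NID2 and NPNT were higher, and perlecan (HSPG2) was lower at 45.8 CPM in members and 110 CPM in the other barcodes. With the looser gate HSPG2 and NPNT lay within 2-fold, at log2 ratios of −0.40 and 0.79, and NID2 reached 0.86 in its lowest alternative.

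**Figure D3:**
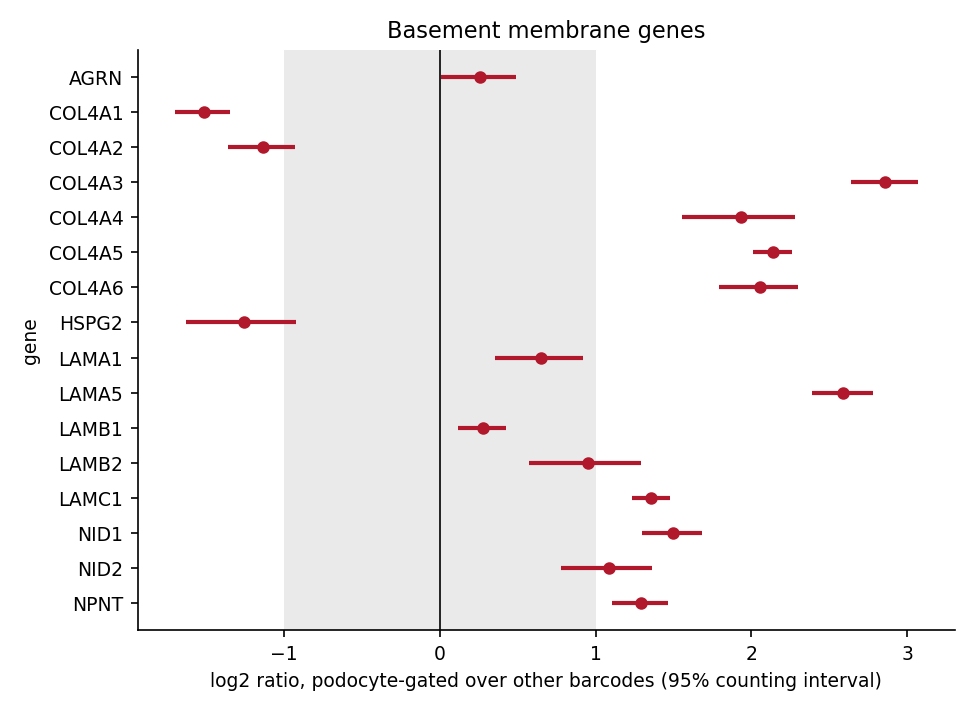
Log2 ratio of podocyte-gated over other barcodes for 16 basement membrane genes, with 95% counting intervals as lines and the range within 2-fold in grey. COL4A3 and LAMA5 lie furthest to the right (2.86 and 2.59), and COL4A1, COL4A2 and HSPG2 lie to the left of the grey range.

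Of 20 genes of the actin cytoskeleton that could be compared, 10 were higher and 2 lower, beside 7.95% and 19% over all genes. The median log2 ratio was 0.84. ROBO2, the SLIT receptor that binds the slit diaphragm, stood at 2491 CPM in members and 566 CPM in the other barcodes, the Rac inhibitor ARHGAP24 at 854 CPM against 173 CPM, and the filament protein nestin (NES) at 741 CPM against 79.7 CPM. Synaptopodin (SYNPO) and the motor MYO1E, both chosen after their values were seen, were 10.3-fold (8.56 to 12.3) and 3.12-fold higher (2.86 to 3.41). SYNPO, an actin partner of mature foot processes, was found in 45 of 83 members. ANLN, which serves cytokinesis, was lower at 2.66 CPM in members against 25.6 CPM in the other barcodes. The adhesion list held 7 of 16 higher and 2 lower, beside the same shares over all genes. The integrin chain ITGA3, which binds laminin in the podocyte and was chosen after its values were seen, stood 15.1-fold higher (13.0 to 17.3), at 153 CPM in members and 10.2 CPM in the other barcodes. Its partner ITGB1 stood at 1051 CPM against 501 CPM, while vinculin (VCL) was lower at 120.1 CPM against 397 CPM. With the looser gate ITGB1 and VCL lay within 2-fold, at log2 ratios of 0.81 and −0.38.

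Of the 19 genes compared for secreted factors that podocytes are known to send to their capillaries, 8 were higher and 5 lower. Over all genes the shares were 7.95% and 19%. The median log2 ratio of this list was 0.65. VEGFA, the growth factor of the glomerular endothelium, was 17.5-fold higher (16.3 to 18.6) at 716 CPM in members and 41.0 CPM in the other barcodes, and 80 of 83 members held a UMI. Per cell it stood at 0, 6.89 and 21.9 UMIs per 10000 in the lowest, median and highest member. SEMA3G, a semaphorin of the podocyte, was 46.5-fold higher (39.1 to 55.2) at 143 CPM in members and 3.08 CPM in the other barcodes. IGF2, the fetal growth factor, had a UMI in 83 of 83 members at 14265 CPM, against 3759 CPM in the other barcodes. The ephrin EFNB2 was 4.62-fold higher (4.35 to 4.90) at 764 CPM in members and 165 CPM in the other barcodes. VEGFC, ANGPT1 and SEMA3A were lower, at 7.97, 4.65 and 6.64 CPM in members and 67.1, 42.7 and 29.9 CPM in the other barcodes. VEGFC lay within 2-fold with the looser gate, at a log2 ratio of −0.84. PTGDS, the prostaglandin D synthase, had 1 UMI in the members, 0.664 CPM, against 26.5 CPM in the other barcodes and 128 CPM in Sertoli-gated ones. BMP4 stood at 239 CPM in members against 31.2 CPM. It belongs to the list of WNT and BMP genes, with 2 of 15 higher and 6 lower, beside backgrounds of 7.95% and 19%.

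Among 19 receptors and signalling genes, 8 were higher and 3 lower, beside 7.95% and 19% over all genes. The median log2 ratio was 0.71. THSD7A and PLA2R1, 2 of the targets of antibodies in human membranous nephropathy, were at 1636 and 104 CPM in members and 103 and 10.7 CPM in the other barcodes. PLA2R1 was chosen after its values were seen. PLCE1, a phospholipase mutated in human nephrotic syndrome, was 3.10-fold higher (2.77 to 3.46) at 222 CPM in members and 71.4 CPM in the other barcodes. DACH1 and the co-receptor TGFBR3 stood at 1559 and 478 CPM in members against 443 and 82.8 CPM. Of 15 genes of coenzyme Q synthesis, nuclear pores and related functions whose mutation also causes nephrotic syndrome, 0 were higher and 0 lower, with a median of 0.02. The 20 ribosomal protein genes gave 0 higher and 0 lower with the same median, 0.02.

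Markers of the neighbouring nephron segments were lower than in the sum of the other barcodes, which include the tubule cells themselves. Of 13 proximal tubule genes compared, 0 were higher and 11 lower, with the endocytic receptor LRP2 at 39.2 CPM in members, 1230 CPM in proximal tubule-gated and 187 CPM in all other barcodes. Cubilin (CUBN) stood at 11.3 CPM in members and 622 CPM in proximal tubule-gated barcodes, whose gate uses both genes, and its log2 ratio turned to 0.013 once tubule-gated barcodes were left out of the comparison. Of 12 distal tubule and duct genes, 2 were higher and 7 lower. For both tubule lists the backgrounds were 7.95% higher and 19% lower. WFDC2 was the higher one with many UMIs, at 347 CPM in members against 125 CPM in the other barcodes and 735 CPM in distal tubule-gated ones, while CLDN8 rested on 2 members. The median log2 ratio of this list was −1.16, and 0.038 once tubule-gated barcodes were left out of the comparison. Over endothelial-gated and Sertoli-gated barcodes it was 1.33 and 2.07, with 5 of 9 and 7 of 10 genes higher, beside backgrounds of 15.2% and 15.3%. The proximal tubule list had a median of −3.09 over the other barcodes and 0.25 over endothelial-gated ones. Per cell, 58 of 83 members lay above the median of the other barcodes in the summed proximal tubule list and 56 of 83 in the distal one.

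Of 10 genes of Bowman's capsule, 1 was higher and 5 lower, beside 7.95% higher and 19% lower over all genes. The higher one was LHX1, a transcription factor of the early nephron, at 116 CPM in members against 24.8 CPM in the other barcodes. CLDN1, the claudin of the parietal layer, was lower at 18.6 CPM against 49.1 CPM, which turned to a log2 ratio of 0.41 without barcodes over 3 times the median depth. Of 15 genes of the nephron progenitor and early nephron, 2 were higher and 5 lower, beside the same background. Their median log2 ratio was −0.05, against −0.21 for all genes. The progenitor factor SIX2, chosen after its values were seen, had 0 UMIs in the members.

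**Figure D4:**
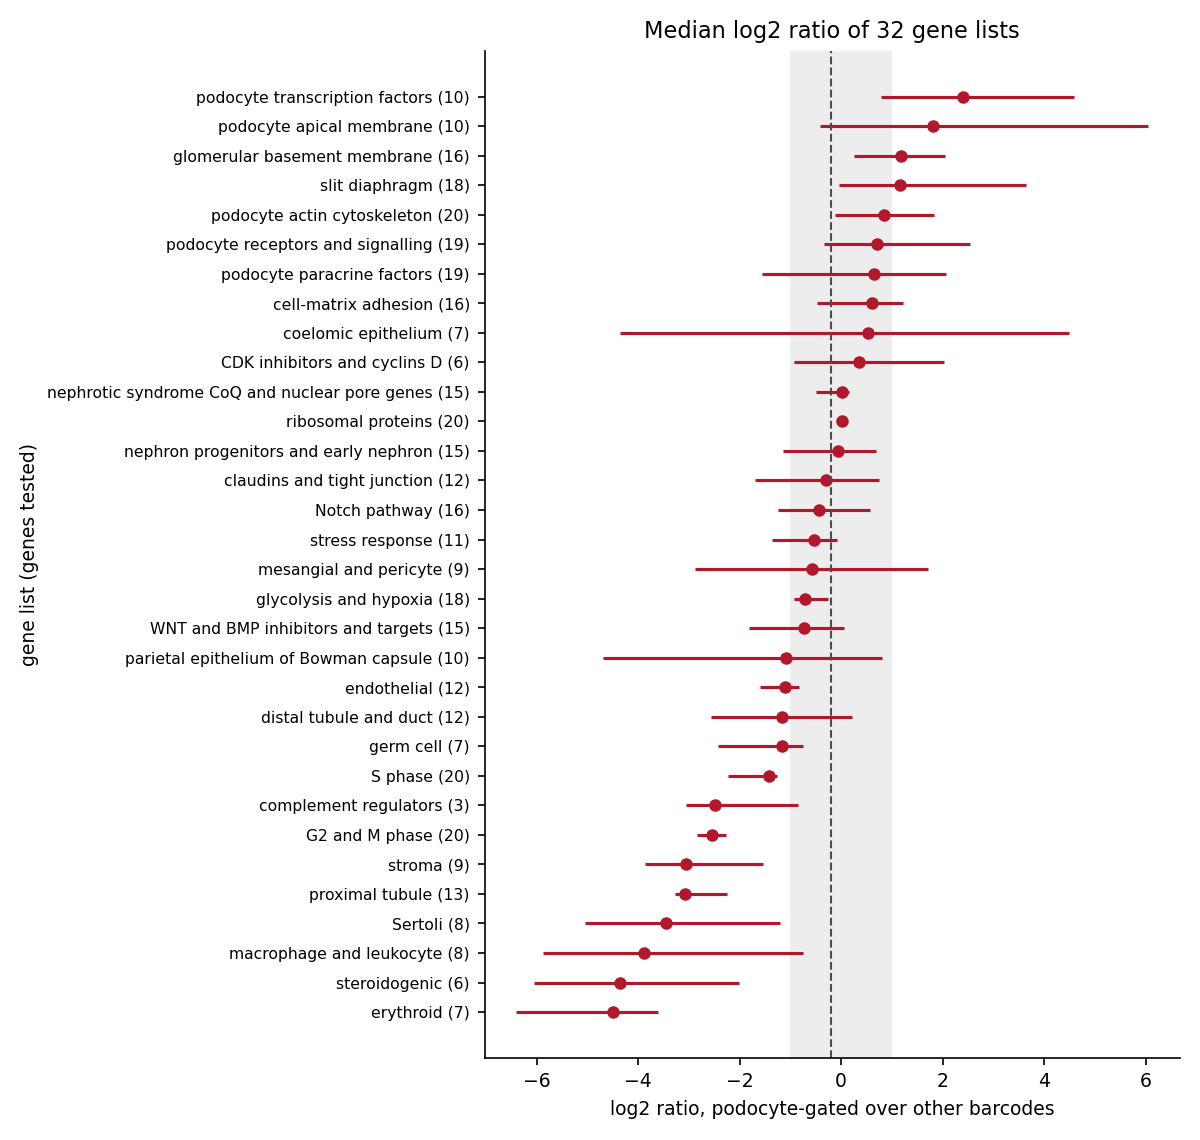
Median log2 ratio of podocyte-gated over other barcodes for 32 gene lists (points), with the 95% order-statistic interval over the genes of a list (lines), the number of genes compared in brackets, the median of all genes (−0.21) as a dashed line and the range within 2-fold in grey. The 4 lists above the grey range are transcription factors, apical membrane, basement membrane and slit diaphragm of the podocyte, and the erythroid list is lowest (−4.50).

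Cell-cycle genes were low as a group. Of 20 G2 and M phase genes, 20 were lower (median log2 ratio −2.55), and of 20 S phase genes, 17 were lower (median −1.43), beside a background of 19%. TOP2A, the topoisomerase of dividing cells, stood at 38.5 CPM in members and 248 CPM in the other barcodes, and CENPF, a kinetochore protein, at 22.6 CPM against 342 CPM. With every barcode thinned to 1500 UMIs, 8 of 83 members held at least 2 different G2 and M phase genes, 9.64% (4.25 to 18.1). The share was 14.9% (12.6 to 17.4) of proximal tubule-gated, 19.9% (14.5 to 26.2) of distal tubule-gated and 32.01% (30.99 to 33.05) of all other barcodes. The interval of the members overlapped that of both tubule classes. So did the S phase interval, at 9.64% (4.25 to 18.1) of members. Thinned to 3000 UMIs, the S phase share was 18.9% (10.7 to 29.7) of 74 members and 33.7% (30.2 to 37.3) of proximal tubule-gated barcodes. These 2 intervals did not overlap, while that of distal tubule-gated barcodes (24.2 to 40.8) overlapped that of the members. The G2 and M phase intervals still overlapped at that depth. CDKN1C, the cell-cycle inhibitor p57 that marks podocytes leaving the cycle, was 4.07-fold higher (3.96 to 4.18) at 3697 CPM in members and 909 CPM in the other barcodes, with a UMI in 79 of 83 members. In distal tubule-gated barcodes it stood at 1444 CPM. CDKN1A was 2.61-fold higher (2.20 to 3.07). The list of CDK inhibitors and cyclins D held 2 of 6 genes higher, 0 lower and 4 within 2-fold. Its median log2 ratio was 0.35, beside 7.95% higher and 19% lower over all genes.

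Genes of other cell types were followed beside these results. Of 12 endothelial markers, 8 were lower and 1 higher over the other barcodes, which include the endothelial cells, beside backgrounds of 19% and 7.95%. Over proximal tubule-gated, distal tubule-gated and Sertoli-gated barcodes 9, 11 and 11 of 12 were higher and 0 lower. The backgrounds there were 12.7%, 13.6% and 15.3% higher. Over endothelial-gated barcodes 11 of 12 were lower and 0 higher. Per cell, 77 of 83 members lay above the median of the other barcodes in the summed list. The summed level was 911 CPM in members and 1143 CPM in the other barcodes. 0 of these markers was at 0 in the members. The vascular cadherin CDH5, the VEGF receptors KDR and FLT1 and the adhesion protein PECAM1 stood at 45.8, 63.1, 59.1 and 33.9 CPM in the 83 members. In the 76 members that did not pass the endothelial gate they stood at 5.35, 3.82, 1.53 and 7.65 CPM. In the 7 that passed it they stood at 312, 453, 438 and 206 CPM. CDH5, KDR and PECAM1 were chosen after their values were seen, and CDH5, KDR and PECAM1 make the gate together with EGFL7.

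Claudin 5 (CLDN5), a tight-junction protein best known from endothelium, did not follow these genes. It stood at 519 CPM in members, 385 CPM in endothelial-gated and 78.7 CPM in all other barcodes, and 72 of 83 members held a UMI. In the 76 members outside the endothelial gate it stood at 505 CPM. Per cell it ran to 4.16 UMIs per 10000 at the median and 17.5 at the highest member.

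The pericyte genes RGS5 and PDGFRB were also high, RGS5 at 686 CPM against 25.3 CPM and PDGFRB at 104 CPM against 31.7 CPM in the other barcodes, while ACTA2 and MCAM were lower at 5.31 and 11.9 CPM against 41.5 and 31.0 CPM. MCAM lay within 2-fold with the looser gate, at a log2 ratio of −0.71. Of the 9 pericyte and mesangial genes compared, 2 were higher and 3 lower, beside backgrounds of 7.95% and 19%. The gonadal and blood lists gave 0 higher over the other barcodes, which include those cells themselves. Lower were 8 of 8 Sertoli genes, 6 of 6 steroidogenic genes and 7 of 7 erythroid genes. So were 4 of 7 germ cell genes and 6 of 8 leukocyte genes, beside 19% over all genes. Of the germ cell genes compared, 4 of 4 were higher over proximal tubule-gated, 3 of 4 over distal tubule-gated and 3 of 5 over endothelial-gated barcodes. The backgrounds there were 12.7%, 13.6% and 15.2% higher. Over Sertoli-gated barcodes 7 of 7 were lower. The leukocyte genes PTPRC, TYROBP and C1QB had 0 UMIs in the members, and with the members set at the floor of 3 counts C1QB was at least 9.81-fold lower than the 19.5 CPM of the other barcodes.

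The 15 genes with the highest ratios, by a rule of at least 100 CPM and a UMI in at least 25% of the members, included PTPRO, NPHS1, DDN, CLIC5, FOXD1, MAGI2 and SEMA3G, described above. Also among them were PTPRQ, MGAT4C, PCSK2, MRGPRF, SCGB3A2, NPTX1 and FRMD1. PTPRQ, a receptor phosphatase related to PTPRO, was 152-fold higher (144 to 161), with 2470.5 CPM in members, 16.2 CPM in the other barcodes and a UMI in 82 of 83 members. MGAT4C, a glycosyltransferase gene, was 140.3-fold higher (128 to 154) at 886 CPM, with a UMI in 39 of 83 members. FRMD1 stood at 479 CPM against 12.3 CPM in 67 of 83 members. SCGB3A2, a secretoglobin, stood at 198 CPM against 4.82 CPM in 32 of 83 members, and the prohormone convertase PCSK2 at 110.2 CPM against 1.44 CPM in 30 of 83. The lowest ratios belonged to genes of other cells, such as CYP17A1 (12.6 CPM against 565 CPM), AMH (12.6 CPM against 426 CPM), COL3A1 (16.6 CPM against 259.9 CPM) and APOC2 (21.2 CPM against 246 CPM).

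The members were not uniform, and MGAT4C, found in 39 of 83, went with wide differences in other genes. This split, CTSC, SYNPO, PAX2 and PAX8 were chosen after the values were seen. The 39 members with an MGAT4C UMI had COL4A3 at 246 CPM, and the 44 without one at 17.2 CPM. In the same 2 sets stood COL4A4 at 78.8 and 11.9 CPM, the protease CTSC at 453 and 37.0 CPM, and SYNPO at 126 and 56.8 CPM. The members without MGAT4C held more RGS5 (184 CPM with MGAT4C and 1183 CPM without), SCGB3A2 (34.7 and 359 CPM), PCSK2 (16.0 and 203 CPM), LHX1 (48.1 and 183 CPM), LAMB1 (54.7 and 408 CPM), PAX2 (12.02 and 75.2 CPM) and PAX8 (77.4 and 189 CPM). PODXL, VEGFA, WT1 and CDKN1C differed less, at 1529, 819, 390 and 3648 CPM with MGAT4C and 1279, 615, 573 and 3746 CPM without. The genes that define the members differed more, NPHS1 at 1703 CPM with MGAT4C and 891 CPM without, and PTPRO at 4328 and 1999.5 CPM. The split thus also went with the height of a member above the NPHS1 and PTPRO thresholds. Median depth was 11202 UMIs with MGAT4C and 8667.5 without. Summed over the 7 members that pass the endothelial gate, MGAT4C stood at 1550 CPM, CTSC at 689 CPM and LAMB1 at 25.2 CPM, against 785, 176 and 264 CPM in the 76 that do not. The part of this gate in the split was not tested.

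**Figure D5:**
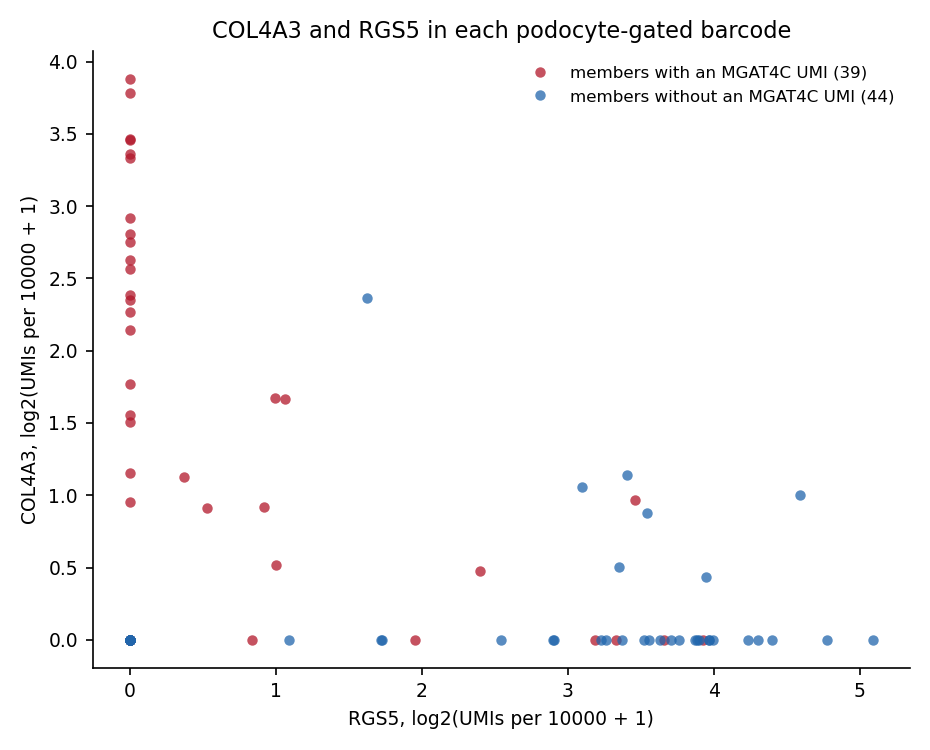
COL4A3 against RGS5, each as log2(UMIs per 10000 + 1), in each of the 83 podocyte-gated barcodes, coloured by whether an MGAT4C UMI was found (39 with, 44 without). Points with COL4A3 lie mostly among the members with MGAT4C (28 of 35), and high RGS5 lies mostly among the members without it.

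Across cells the same genes went together. Spearman correlations over the 83 members, given as descriptions, were 0.69 for MGAT4C with COL4A3, −0.57 for MGAT4C with RGS5, 0.68 for RGS5 with SCGB3A2 and 0.65 for RGS5 with LHX1. All these points come from 1 library. In the deeper 42 members the first 2 values were 0.78 and −0.75. Without the 7 members that pass the endothelial gate they were 0.66 and −0.55. MGAT4C went little with depth (0.03), RGS5 and LHX1 more (0.32 and 0.40), and IGF2 went with it most (0.62), of the genes given here.

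Barcodes that met the gate for 1 of its 2 genes shared some of the members' genes. The 26 that met the PTPRO condition only had a UMI of MGAT4C in 7 of 26, with MAGI2 at 3695 CPM, PODXL at 575 CPM, PTPRQ at 510 CPM and RGS5 at 547 CPM, beside LHX1 at 194 CPM, PAX8 at 173 CPM and TOP2A at 221 CPM. Among their genes with the highest ratios against the remaining barcodes were PTPRO, PTPRQ, CLIC5 and MGAT4C, and 1 of the 26 passed the proximal tubule gate and 2 the endothelial gate. TOP2A in these 26 was above the 38.5 CPM of the members and near the 248 CPM of the other barcodes.

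The 57 barcodes that met the NPHS1 conditions only had NPHS1 at 525 CPM and PODXL at 83.6 CPM. MGAT4C and RGS5 were among their leading genes as well, at 108 and 379 CPM, with an MGAT4C UMI in 22 of 57, and MAGI2 stood at 1106 CPM with a UMI in 39 of 57. CDH6, LRP2, CLDN1 and SLC35F4 stood at 78.3, 39.2, 18.6 and 6.64 CPM in the members and at 744, 503, 423 and 511 CPM in these 57, of which 19 passed the proximal tubule gate. In their sum, nephrin RNA was thus found beside tubule and parietal genes. Both groups are small and were looked at after the values were seen.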

How the data were processed

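Cells of 2 libraries were measured by droplet single-cell RNA sequencing. The authors deposited matrices of UMI counts, whole numbers without normalization. Their headers name Cell Ranger 7.1.0, while version 2.1.1 stands in what the submitters' processing notes list. The kit is DNBelab C series per the labels' protocols, yet barcodes have the form of 10x Genomics chemistry, and the part of this in the counts was not tested. Genome build, annotation and use of introns were not given in the sources used here. Of 38517 features, 21981 were locus identifiers, and 768 of them received a symbol from RefSeq's donkey gene table. No feature was mitochondrial (0 found), so RNA quality could not be judged from such genes.

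The members and the 32 gene lists were chosen with earlier results of these data known. UMI counts were summed per class and divided by the class total (CPM). Levels carry exact Poisson intervals, ratios exact conditional binomial intervals and shares Clopper-Pearson intervals, all at 95%. Log2 ratios had 0.5 UMI added to each sum, and a count of 0 was given the limit of 3 counts. Other classes were gated on summed UMIs per 10000: proximal tubule (LRP2, CUBN, PDZK1, SLC3A1), distal tubule (SLC12A1, SLC12A3) and endothelial (PECAM1, CDH5, KDR, EGFL7) at 5 or more, Sertoli (AMH, SOX9) at 10 or more, each with at least 3 UMIs and, except for distal tubule, at least 2 of the genes detected. Each library was 1 group. Doublets were kept. Scores followed the Scrublet method, and removal of the top 6% was an alternative. Thinning used seed 1.

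Genes could be named from the slit diaphragm, apical, transcription factor, basement membrane and paracrine lists, with up to 4 higher and 4 lower genes of the other lists by UMIs, and the 15 highest and 15 lowest ratios. Others are said to be chosen after their values were seen. Alternatives changed the gate, UMI minimum, low-count filter, centring, weighting of cells and comparison set. The code was checked on simulated counts. Python 3.11.15, numpy 2.4.6, scipy 1.17.1, pandas 2.3.3 and scikit-learn 1.9.0 were used. Some genes are not reported here.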

Additional observations from a re-analysis of the deposited data

How the results depend on the processing

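The gate sets the number of members. The member share of 1.03% became 0.803% (65 members) with the stricter gate and 1.35% (109 members) with the looser one, and ran between 0.929% and 1.04% under the other 6 alternatives. The number of gene lists with a median of at least 2-fold was 4, was 2 with the looser gate and stayed between 4 and 6 otherwise. The count of higher genes was 1008, ran between 707 and 1346 under 12 alternatives and was 10159 with no low-count filter, where a gene with 0 member UMIs and few elsewhere reads as higher because 0.5 UMI is added to each sum. The count of lower genes (2411) was 4855 with no filter and 1283 with at least 30 expected UMIs, which tests fewer genes. Against proximal tubule-gated barcodes the count of 1558 became 6328 with no filter and 984 with 30 expected UMIs. Against distal tubule-gated barcodes 1657 became 4312, 1035 and, with cells weighted equally, 2636. The cause of that last change was not tested.

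Of 75 named genes that were higher, 68 remained at least 2-fold higher in every alternative run and 0 turned. Of 103 that were lower, 70 remained and 7 turned in some alternative. The log2 ratio was 0.36 for BMPER and 0.11 for NRARP with the looser gate, 0.41 for CLDN1 without barcodes over 3 times the median UMIs, and 0.081 for EYA1 and 0.79 for DLL1 with cells weighted equally. With tubule-gated barcodes left out of the comparison it was 0.013 for CUBN and 0.78 for SLC12A1, and the median of the distal tubule and duct list was 0.038. The alternatives without the members that pass the endothelial gate and without the 5 deepest members were chosen after seeing the data, and gave 979 and 937 higher and 2480 and 2034 lower genes. No paired analysis was possible because each stage is 1 library and the labels give no replicate numbers. With 83 members, a gene at 1 CPM has between 1 and 2 expected UMIs, so low genes cannot be read.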

Other observations

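Notch and energy genes are values outside the comparisons above. NOTCH2, the receptor that patterns the proximal nephron in mice, stood at 380 CPM in podocyte-gated barcodes and 126 CPM in the other barcodes, with a UMI in 76 of 83 members, and the target gene HEY2 at 33.2 CPM against 12.5 CPM. Of 16 Notch pathway genes, 3 were higher and 4 lower, beside 7.95% higher and 19% lower over all genes. Among 18 genes of glycolysis and hypoxia, 3 were also higher and 4 lower, near the same background on the lower side, with hexokinase HK2 at 39.8 CPM in members against 12.8 CPM and HK1 at 43.1 CPM against 127 CPM in the other barcodes. MSLN, a gene of coelomic epithelium, stood at 178 CPM in 55 of 83 members against 8.06 CPM in the other barcodes. Its list did not go 1 way, with 2 of 7 genes compared higher, 2 lower and 3 within 2-fold. Of 11 stress response genes, 3 were lower and 8 within 2-fold, beside 19% lower over all genes. FOS, 1 of the lower ones, stood at 301 CPM against 809.9 CPM.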
